A study of Mus musculus with 12 samples.

Results

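Hepatocytes in which Hnf4a had been knocked down were compared directly with hepatocytes in which Cebpa had been knocked down. The comparison used 6 of the 12 libraries of the series, namely all 3 labelled siHnf4a and all 3 labelled siCebpa, matched by mouse, and every gene that passed a filter on low counts. No library of the siCon control entered the contrast, although the fit behind it held all 12 libraries to estimate the spread. Primary hepatocytes were isolated from 3 mice, and the cells of each mouse gave 1 library per group, treated with siRNA against Hnf4a (siHnf4a), against Cebpa (siCebpa), against both (the double knockdown) or with siCon. Strain, age and sex of the mice are not stated in the labels. The cells were plated on collagen in Williams' E medium with 10% FBS, 2 mM glutamine, 100 nM dexamethasone (a synthetic glucocorticoid) and 5% ITS, and all groups shared this medium. Total RNA was extracted with TRIzol after 48 h of knockdown and sequenced by the BGISEQ-500 protocol. Protein was not measured, and the knockdown of each factor was partial at the RNA level.

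HNF4A is a nuclear receptor that binds direct repeats of a short motif in the promoters and enhancers of a large share of hepatocyte genes, among them genes for apolipoproteins, clotting factors and bile acid conjugation. C/EBPA is a basic leucine zipper factor that in liver is known for genes of the urea cycle, of gluconeogenesis and of amino acid breakdown. Both factors are required for the differentiated state of hepatocytes and bind many of the same regulatory regions, so a direct contrast shows which genes had a different level when one rather than the other was reduced.

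Levels are given as CPM (counts relative to library size), scaled between libraries by TMM (trimmed mean of M values, which balances overall composition). Differences are log2 values of siHnf4a minus siCebpa with their standard error, so that a positive value means a higher level in siHnf4a. "Higher" and "lower" are used of genes with an adjusted p under 0.05 in edgeR's quasi-likelihood test with mouse as a block. Libraries held 23885931 to 24806320 estimated counts in siHnf4a and 23809523 to 23933735 in siCebpa. The share of counts in the 10 most abundant genes was 7.57% to 8.25% in siHnf4a and 9.19% to 10.43% in siCebpa, and the mitochondrial share was 2.34% to 4.04% in siHnf4a and 2.83% to 3.72% in siCebpa.

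The targeted genes followed the labels. Hnf4a had 56.7, 59.2 and 46.4 CPM in siHnf4a (mice 1, 2 and 3), against 191, 149 and 293 CPM in siCebpa. The difference was -1.92 ± 0.26 (adjusted p = 0.000461). Cebpa had 206, 204 and 234 CPM in siHnf4a, against 33.7, 30.3 and 26.1 CPM in siCebpa, a difference of 2.84 ± 0.13 (adjusted p = 9.53e-07). For both genes the groups did not overlap, and every alternative processing kept the call. The level of each factor in the cells where the other was targeted was close to its siCon level, since Hnf4a averaged 211 CPM in siCebpa and 230 CPM in siCon, and Cebpa averaged 214 CPM in siHnf4a and 193 CPM in siCon.

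Alb, which encodes albumin and is named in the title of the series, did not pass the threshold. It had 10800, 9500 and 5202 CPM in siHnf4a, against 13910, 6688 and 6043 CPM in siCebpa. The groups overlapped, siCebpa was above siHnf4a in mice 1 and 3 and below it in mouse 2, and the difference was -0.02 ± 0.16 (adjusted p = 0.934). In the double knockdown Alb averaged 5453 CPM and in siCon 7905 CPM.

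Of 15090 genes tested, 2246 (14.9%) were higher and 2466 (16.3%) were lower in siHnf4a than in siCebpa, so that 31.2% passed in either direction. These counts come from the fit of all 12 libraries. A fit of the 6 compared libraries alone gave 3455 genes with the mouse block and 1322 without it. Most of these differences were small: 1197 of the higher and 1609 of the lower genes differed by less than 1.5-fold. At least a 2-fold difference was seen for 467 higher and 389 lower genes, and at least a 4-fold difference for 92 higher and 106 lower genes. The sign was the same in all 3 mice for 2231 of the higher and 2448 of the lower genes. Protein-coding genes made up 2114 of the higher and 2316 of the lower genes. The genes called lower were expressed more strongly in sum, with 223600 CPM in siHnf4a against 329500 CPM in siCebpa, while the genes called higher summed to 205900 CPM in siHnf4a against 137300 CPM in siCebpa. Without mouse 2 the count fell to 1440 genes (773 higher, 667 lower), and without mouse 3 to 2670. Leaving out the siHnf4a library of mouse 2 gave 2935 genes, and leaving out a siCebpa library gave 3163 for mouse 2 and 3192 for mouse 3. On the deposited TPM values, 2676 genes were higher and 944 lower, or 73.9% higher among the calls, against 47.7% in the count test. After the TPM values had been scaled by TMM, the split was 1745 higher and 1717 lower, or 50.4%. The median difference over all tested genes was -0.01 in the count test and 0.10 on the unscaled TPM values.

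**Figure D1:**
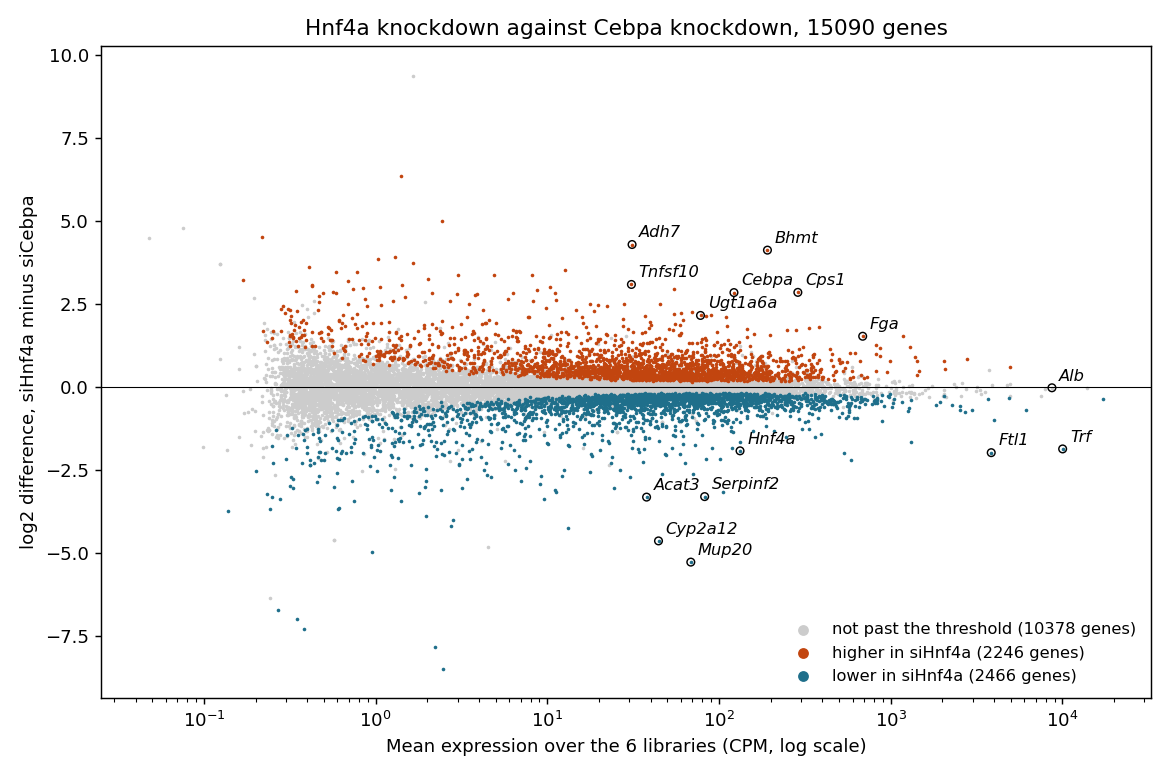
Each point is 1 of 15090 genes, with its mean level over the 6 libraries (CPM, log scale) on the horizontal axis and the log2 difference of siHnf4a minus siCebpa on the vertical axis. Orange genes (2246) were higher and blue genes (2466) lower in siHnf4a. Ringed genes are described in the text, with Alb on the zero line at the far right, Trf and Ftl1 below it and Adh7 and Bhmt at the top.

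The 12 largest positive differences among genes with a mean of at least 5 CPM included Cebpa itself, the enzyme genes Adh7, Bhmt, Arg1 and Cps1, and the ligand gene Tnfsf10. Adh7, a class IV alcohol dehydrogenase active on retinol, had 38.8, 60.7 and 78.4 CPM in siHnf4a, against 2.38, 2.57 and 4.12 CPM in siCebpa (4.29 ± 0.15, adjusted p = 2.12e-07). Its mean was 55.8 CPM in the double knockdown and 0.955 CPM in siCon, so both single knockdowns lay above siCon. Bhmt, the enzyme that remethylates homocysteine with betaine, had 220, 606 and 261 CPM in siHnf4a, against 19.4, 33.0 and 10.6 CPM in siCebpa (4.12 ± 0.22, adjusted p = 2.33e-06). The siCon mean of Bhmt, 76.6 CPM, lay between the means of the knockdowns, and so did the siCon means of Cps1 and Arg1. Tnfsf10, which encodes the death ligand TRAIL, had 47.5, 60.1 and 56.5 CPM in siHnf4a, against 12.2, 7.72 and 1.51 CPM in siCebpa (3.09 ± 0.45, adjusted p = 0.000708). All 3 genes kept their call in every alternative. For Tnfsf10 the difference was 3.73 without mouse 1 and 2.48 without mouse 3.

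Slc10a2, the apical sodium-dependent bile acid transporter, differed by 2.82 ± 0.27 with levels of 3.91 to 15.01 CPM in siHnf4a and 0.797 to 2.85 CPM in siCebpa. The other large positive differences were seen in genes at 6 to 31 CPM in siHnf4a. They were Acod1 (3.52), which makes itaconate in activated macrophages, Neurl1a (3.37), a ubiquitin ligase, Ly6d (3.01), a surface protein, the pseudogene Gm8995 (2.91) and Pglyrp3 (2.84), a peptidoglycan recognition protein. These 5 calls were lost without mouse 2, with adjusted p values of 0.0735 for Acod1, 0.052 for Neurl1a, 0.0512 for Ly6d, 0.072 for Gm8995 and 0.0956 for Pglyrp3. Without mouse 1 the differences were 4.37 for Acod1, 4.54 for Neurl1a, 4.06 for Ly6d, 3.90 for Gm8995 and 3.56 for Pglyrp3. Without mouse 3 they were 2.59 for Acod1, 2.69 for Neurl1a, 2.24 for Gm8995 and 1.99 for Pglyrp3. Single libraries moved some of them as well. Without the siHnf4a library of mouse 1 or 3 Acod1 differed by 4.19 or 2.90. Without the siCebpa library of mouse 1 the values were 4.42 for Neurl1a, 3.92 for Ly6d and 3.83 for Gm8995, and without that of mouse 3 they were 2.69 for Neurl1a and 2.29 for Gm8995.

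Among the largest negative differences were 2 genes of male-type liver expression and bile acid hydroxylation. Mup20, the major urinary protein known as darcin, had 1.39, 7.36 and 2.06 CPM in siHnf4a, against 60.7, 204 and 136 CPM in siCebpa (-5.27 ± 0.36, adjusted p = 1.07e-05). Major urinary protein genes are near-identical copies, so reads may be shared among them. Cyp2a12, a P450 that hydroxylates secondary bile acids in mice, had 3.78, 5.27 and 1.36 CPM in siHnf4a, against 119, 94.2 and 42.7 CPM in siCebpa (-4.63 ± 0.19, adjusted p = 6.68e-07). In both cases the siCebpa libraries lay well above all siHnf4a libraries, with siCon means of 281 CPM for Mup20 and 89.6 CPM for Cyp2a12. Pigt, a subunit of the complex that attaches proteins to GPI anchors, had 23.6, 20.8 and 18.8 CPM in siHnf4a, against 161, 205 and 202 CPM in siCebpa (-3.17 ± 0.16, adjusted p = 2.16e-06).

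Acat3, a cytosolic acetyl-CoA acetyltransferase, had 6.76, 5.72 and 8.31 CPM in siHnf4a, against 64.1, 59.7 and 82.6 CPM in siCebpa (-3.31 ± 0.11, adjusted p = 2.12e-07). Smpd3, neutral sphingomyelinase 2, had 1.71, 1.85 and 1.398 CPM in siHnf4a, against 12.5, 17.2 and 22.6 CPM in siCebpa (-3.36 ± 0.26, adjusted p = 1.92e-05). Acat3 overlaps Tcp1 and Smpd3 overlaps Prmt7 on the opposite strand, and the strand setting of the counting is not given in the sources used here. Neither neighbour passed the threshold, with differences of -0.03 for Tcp1 and -0.09 for Prmt7. Mettl7b, a methyltransferase-like protein of lipid droplets, averaged 2.25 CPM in siHnf4a and 20.3 CPM in siCebpa (-3.17 ± 0.31, adjusted p = 6.91e-05). It overlaps the integrin gene Itga7 on the opposite strand, which went the other way, with 78.8 CPM in siHnf4a and 12.4 CPM in siCebpa (2.50 ± 0.41, adjusted p = 0.00133). The Itga7 call was lost without mouse 2 (adjusted p = 0.0559), and its difference was 3.10 without mouse 1.

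Rdh7, a retinol dehydrogenase, differed by -3.04 ± 0.49 (-2.30 without mouse 3) and Asgr2, a subunit of the hepatocyte asialoglycoprotein receptor, by -2.84 ± 0.27. The pseudogene Pgam1-ps2 had 0, 0 and 9.79 CPM in siHnf4a, against 16.3, 18.6 and 34.7 CPM in siCebpa, and 0.147 CPM on average in siCon. With 2 libraries at 0 its fitted difference depends on the prior count, and the call was lost without mouse 2 (adjusted p = 0.104), without the siHnf4a library of mouse 2 (0.055) and without the siCebpa library of mouse 2 (0.0549). It was also lost without the mouse block (up to 0.278). The fitted difference was -4.23 with all libraries, ran from -3.66 to -3.22 when mouse 1 or 2 or 1 of their libraries was left out, and was -6.70 without the siCebpa library of mouse 3, -11.45 without the siHnf4a library of mouse 3 and -11.73 without mouse 3.

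**Figure D2:**
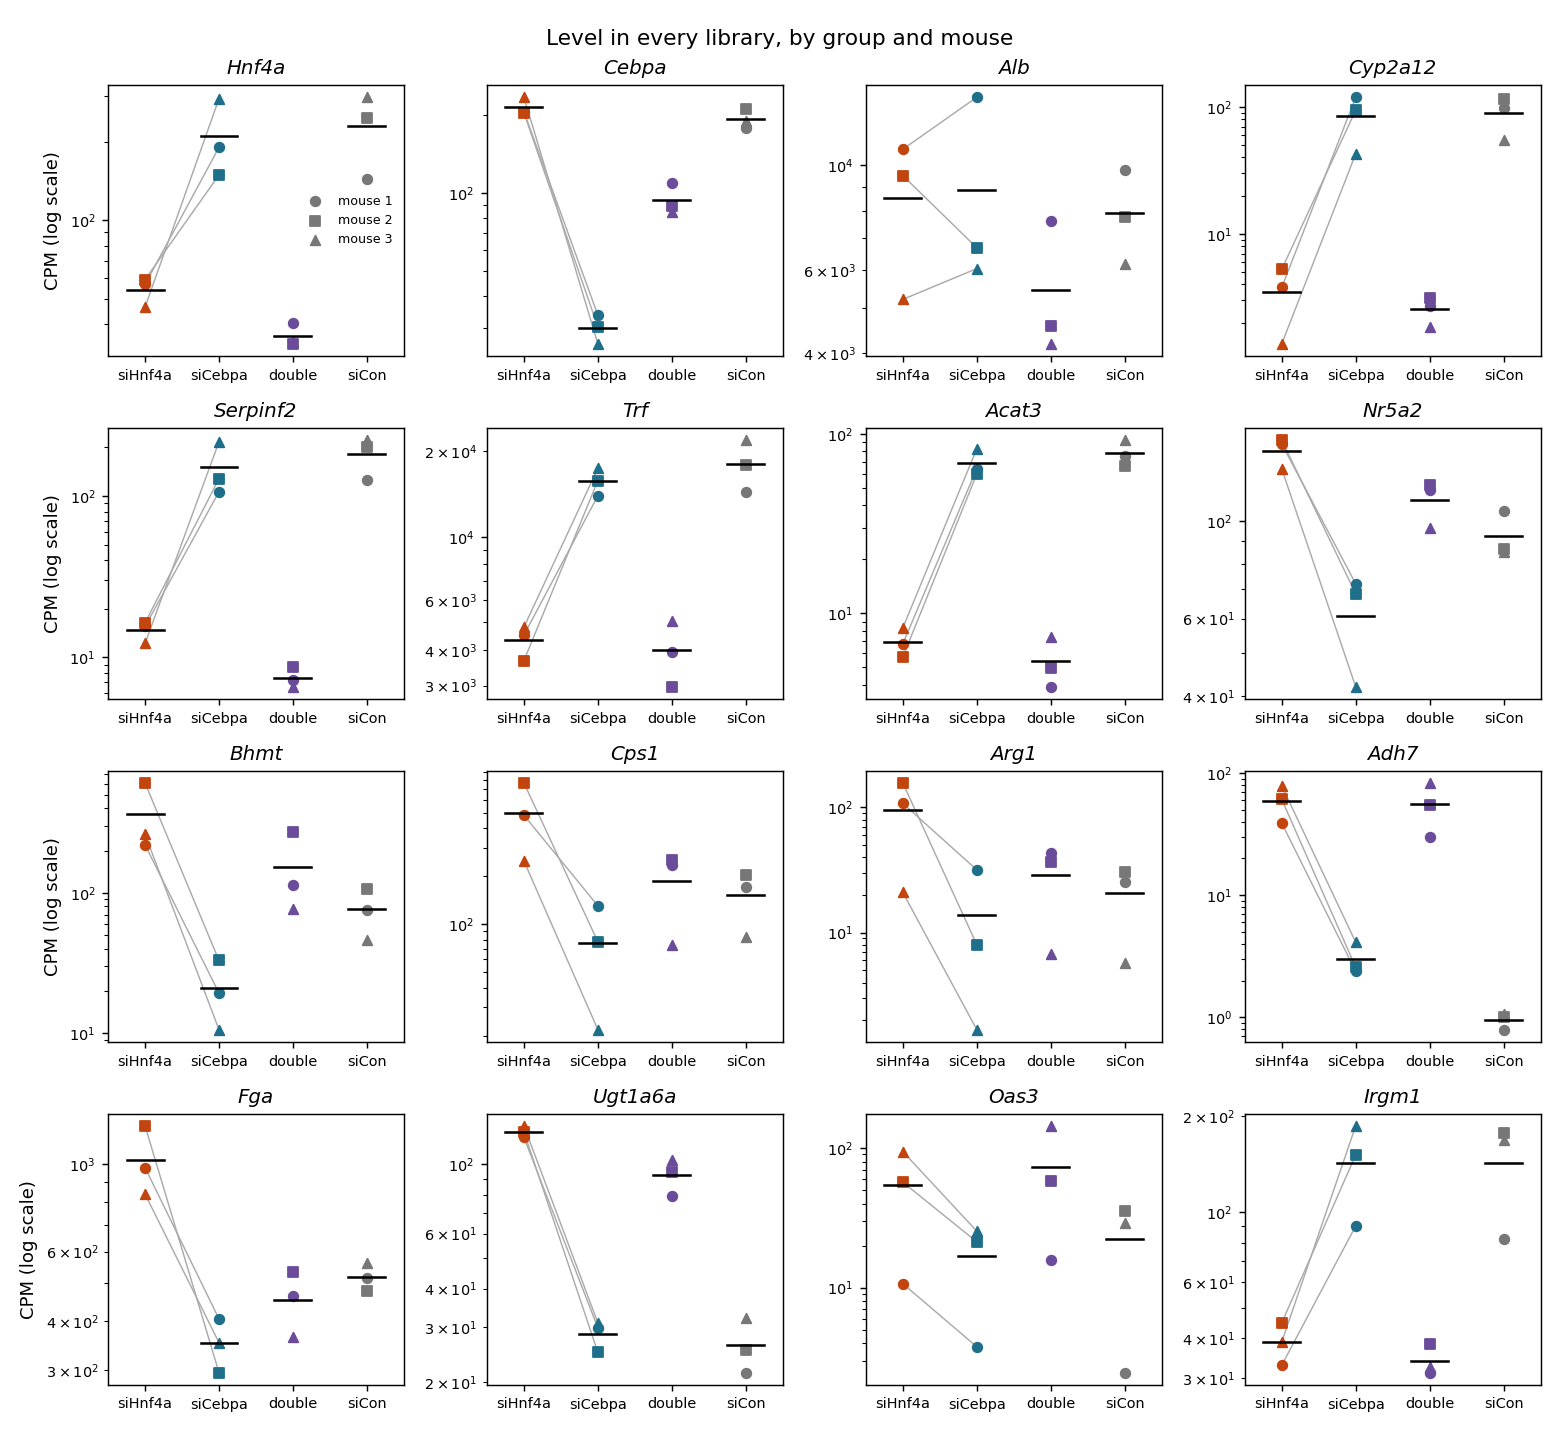
Level of 16 genes in every library (CPM, log scale), by group from left to right: siHnf4a, siCebpa, double knockdown and siCon. Symbols are mice, black bars are group means of 3 libraries, and grey lines join siHnf4a and siCebpa of 1 mouse. Hnf4a and Cebpa were each lowest in the libraries that targeted them or in the double knockdown, Alb overlapped between siHnf4a and siCebpa, and the lines of the remaining 13 genes ran in 1 direction in all mice.

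Genes known from earlier work to depend on HNF4A were mostly lower in siHnf4a. Of 34 tested, 22 (64.7%) were lower and 5 (14.7%) higher, with a median difference of -1.09 beside -0.01 over all tested genes. Over all tested genes 16.3% were lower and 14.9% higher, the shares to set beside the counts of this and all later lists. The 5 members that were higher were Tat, Abcg5, Slc10a1, Cldn1 and F11. Genes known to depend on C/EBPA did not move mainly one way: of 23 tested, 6 were higher and 7 lower, with a median of -0.37. The higher ones were Bhmt, G6pc, Cps1, Tat, Hamp and Slc2a2, and the lower ones included Trf, Fabp1 and Fasn. Several of these calls were lost when mouse 2 was left out, with adjusted p of 0.139 for Slc10a1, 0.107 for F11, 0.245 for G6pc, 0.128 for Hamp and 0.447 for Slc2a2, and Fabp1 lost its call without mouse 1 (0.155). Without the siHnf4a or the siCebpa library of mouse 2, G6pc lost its call too (0.136 and 0.114), Fabp1 did so without the siHnf4a (0.0987) or the siCebpa (0.0766) library of mouse 1, and Slc2a2 in most omissions. Without the mouse block the calls of Slc10a1, G6pc, Slc2a2, Fabp1 and Fasn were lost as well. The lists overlap, since Tat, Ugt2b1, Serpina1a, Serpina1c, F9, Otc and Pck1 stand in both. Without mouse 2 the counts were 3 higher and 15 lower for the HNF4A-dependent genes, and 3 higher and 5 lower for the C/EBPA-dependent ones. Without the siCebpa library of mouse 2 the C/EBPA-dependent genes gave 3 higher and 8 lower.

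**Figure D3:**
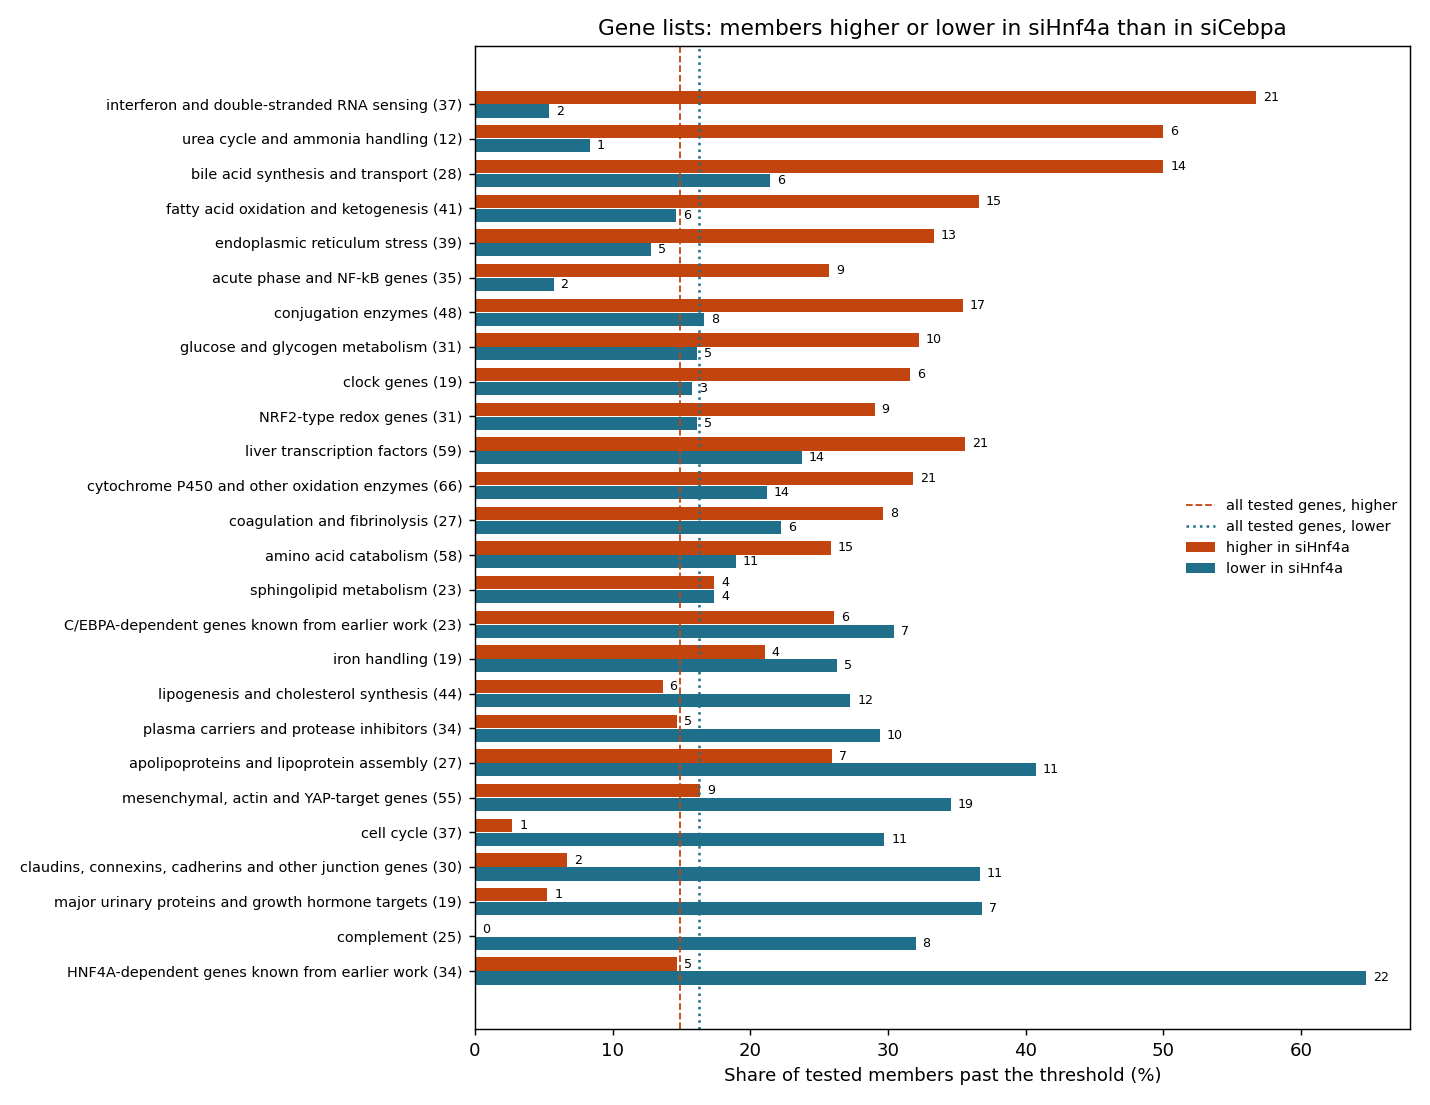
Share of the tested members of each gene list (number tested in brackets) that were higher (orange) or lower (blue) in siHnf4a than in siCebpa, with the number of genes beside each bar. The dashed orange and dotted blue lines mark 14.9% higher and 16.3% lower over all tested genes. Interferon genes stand at the top with 21 of 37 higher, and HNF4A-dependent genes at the bottom with 22 of 34 lower.

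The liver's transcription factors split in both directions. Of 59 tested, 21 were higher and 14 lower, with a median of 0.21. Both siRNA targets are counted here, Cebpa among the higher and Hnf4a among the lower genes. Without mouse 2 the counts were 11 higher and 6 lower, and without mouse 3 they were 15 and 9. Besides Hnf4a, the factors lower in siHnf4a included Creb3l3, a liver factor of lipid metabolism (-1.44 ± 0.20), and the Cebpa relatives Cebpd (-0.98 ± 0.14) and Cebpb (-0.64 ± 0.09). Cebpd had 69.2, 67.1 and 69.8 CPM in siHnf4a, against 120, 149 and 138 CPM in siCebpa, and its siCon mean was 80.2 CPM. Cebpb had 222, 251 and 340 CPM in siHnf4a, against 357, 429 and 466 CPM in siCebpa, and its siCon mean was 401 CPM. The groups did not overlap for either gene, and siHnf4a was the lower library in all 3 mice. Without the mouse block the Cebpb call was lost (adjusted p up to 0.0809).

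Nr5a2, the nuclear receptor LRH-1 that acts on bile acid genes, was higher, with 150, 153 and 131 CPM in siHnf4a against 72.0, 68.3 and 42.0 CPM in siCebpa (1.27 ± 0.12, adjusted p = 4.79e-05). Nfe2l2, which encodes NRF2, averaged 1089 ± 59.5 CPM in siHnf4a and 550.8 ± 56.6 CPM in siCebpa (SD, n = 3 each; 0.98 ± 0.11, adjusted p = 0.000184). Ahr, the dioxin receptor, differed by 0.86 ± 0.13, a call lost without the mouse block (adjusted p up to 0.119). Bcl6 differed by 0.68 ± 0.09 and Stat3 by 0.41 ± 0.07.

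The pioneer factors of the FOXA family differed little. Foxa2 and Foxa3 did not pass (0.22 ± 0.12 and 0.17 ± 0.15), and Foxa1 differed by 0.30 ± 0.08, a call lost without mouse 2 (adjusted p = 0.132), without mouse 3 (0.0589) and in 3 single-library omissions, those of the siHnf4a libraries of mice 1 and 2 and the siCebpa library of mouse 2. The glucocorticoid receptor gene Nr3c1 (0.11 ± 0.12), Ppara (0.43 ± 0.18), Srebf1 (-0.003 ± 0.10), Nr1h3 (-0.05 ± 0.10) and Nr1i2 (-0.32 ± 0.21) did not pass either. The bile acid receptor gene Nr1h4 (0.73 ± 0.12) and its target Nr0b2 (0.95 ± 0.19) were higher, and both calls were lost without mouse 2, with adjusted p of 0.0559 for Nr1h4 and 0.0641 for Nr0b2, and without the mouse block (up to 0.243 for Nr1h4 and 0.507 for Nr0b2).

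Of 12 genes of the urea cycle and ammonia handling, 6 were higher in siHnf4a and 1 lower. Cps1, the first enzyme of the cycle, had 482, 767 and 248.5 CPM in siHnf4a, against 130, 77.5 and 21.8 CPM in siCebpa (2.85 ± 0.27, adjusted p = 5.74e-05). Arg1, the arginase that releases urea, had 108, 157 and 20.9 CPM in siHnf4a, against 31.7, 8.02 and 1.68 CPM in siCebpa (2.95 ± 0.40, adjusted p = 0.000453). Arg1 was higher in siHnf4a within every mouse, but the siHnf4a library of mouse 3 lay below the siCebpa library of mouse 1, and without the mouse block the Arg1 call was lost (adjusted p up to 0.155). Leaving out libraries moved the Arg1 difference to 3.98 (siCebpa of mouse 1), 4.06 (mouse 1) and 2.36 (mouse 2). Ass1, argininosuccinate synthase, had 588, 631 and 741 CPM in siHnf4a, against 467, 329 and 375 CPM in siCebpa (0.74 ± 0.13, adjusted p = 0.00194), a call lost without mouse 2 (adjusted p = 0.075). The neighbouring steps of the cycle differed less. Otc did not pass (-0.54) and Asl was lower by a small margin (-0.25), a call lost without any 1 of the mice (adjusted p = 0.0559, 0.193 and 0.0557 without mouse 1, 2 and 3), without the siHnf4a library of mouse 1 (0.0586) or 2 (0.104) and without the siCebpa library of mouse 2 (0.0652). Without mouse 2, Cps1 and Arg1 were the genes of the 12 that passed, both higher. Without the siHnf4a or the siCebpa library of mouse 2, 3 were higher and 0 lower, and without mouse 3, 4 and 0. On the 6 libraries without the block the Cps1 call was lost (adjusted p up to 0.0578).

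Genes of amino acid breakdown stood on both sides. Of 58 genes, 15 were higher and 11 lower, with a median of 0.02. Without mouse 2 the counts were 6 higher and 8 lower, with 12 and 11 at an unadjusted p under 0.05 in edgeR's test. Without the siCebpa library of mouse 2 they were 9 higher and 10 lower, with 15 and 11 at the unadjusted threshold. Without mouse 3 the counts were 15 higher and 6 lower. Higher genes included Tdo2, the first enzyme of tryptophan breakdown, with 51.5, 62.6 and 28.3 CPM in siHnf4a against 11.8, 6.003 and 7.04 CPM in siCebpa (2.50 ± 0.31, adjusted p = 0.000283). Mat1a, which makes S-adenosylmethionine, averaged 87.0 ± 20.4 CPM in siHnf4a and 29.5 ± 7.39 CPM in siCebpa (SD, n = 3 each; 1.57 ± 0.15). The tyrosine aminotransferase gene Tat was higher by 2.06 ± 0.23, and lost its call without the mouse block (adjusted p up to 0.129).

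Lower genes of the same group included Pipox, which oxidises pipecolate and sarcosine, with 6.36, 4.53 and 4.69 CPM in siHnf4a against 30.9, 27.3 and 32.8 CPM in siCebpa (-2.56 ± 0.19, adjusted p = 1.61e-05). Ftcd, an enzyme of histidine breakdown, averaged 34.0 ± 7.02 CPM in siHnf4a and 112 ± 6.87 CPM in siCebpa (SD, n = 3 each; -1.74 ± 0.22). Uroc1, urocanate hydratase of the same histidine route, differed by -3.09 ± 0.29 and Kmo, a tryptophan-route monooxygenase, by -2.32 ± 0.19. Thus Tdo2 and Kmo, which act on 1 route, differed in opposite directions.

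Bile acid genes stood on both sides too. Of 28 tested, 14 were higher and 6 lower, with a median of 0.59. Without mouse 2 fewer passed, with 3 higher and 4 lower. At an unadjusted p under 0.05 in edgeR's test that omission gave 13 higher and 6 lower. Dropping the mouse block left 5 higher and 4 lower at the adjusted threshold. The 2 enzymes that conjugate bile acids with amino acids were lower: Baat, the acyltransferase, had 2.90, 3.37 and 0.987 CPM in siHnf4a, against 25.9, 11.9 and 9.83 CPM in siCebpa (-2.69 ± 0.24, adjusted p = 4.09e-05), and Slc27a5, the CoA ligase before it, differed by -2.69 ± 0.30 (adjusted p = 0.000145). On the 6 libraries without the mouse block the Slc27a5 call was lost (adjusted p = 0.0501). Cyp2c70, which makes muricholic acids in mice, averaged 17.9 ± 5.19 CPM in siHnf4a and 78.5 ± 49.3 CPM in siCebpa (SD, n = 3 each; -2.003 ± 0.26, adjusted p = 0.000372). Akr1d1, the steroid reductase of bile acid synthesis, had the largest positive difference of the list at low levels, with 2.67, 7.16 and 1.65 CPM in siHnf4a against 0.389, 0.300 and 0.708 CPM in siCebpa (2.83 ± 0.52, adjusted p = 0.00241). Its call was lost without mouse 2 (adjusted p = 0.0544, difference 1.91). The Akr1d1 difference was 2.19 and 2.21 without the siHnf4a and the siCebpa library of mouse 2, 3.68 without the siCebpa library of mouse 3 and 3.75 without mouse 3. Abcb4, the canalicular phospholipid transporter, averaged 114 ± 17.9 CPM in siHnf4a and 24.6 ± 9.49 CPM in siCebpa (SD, n = 3 each; 2.25 ± 0.13, adjusted p = 3.21e-06). Abcg5 (2.02 ± 0.37), a subunit of the canalicular sterol exporter, Slc10a1 (1.63 ± 0.37), the bile acid uptake transporter NTCP, and Abcb11 (1.10 ± 0.24), the bile salt export pump, were higher as well, and without mouse 2 the calls of Slc10a1 (adjusted p = 0.139) and Abcb11 (0.147) were lost, as they were without the mouse block (up to 0.235 for Slc10a1 and 0.19 for Abcb11).

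Lipoprotein genes were lower more often than higher, with 11 lower and 7 higher of 27 and a median of -0.37. The number higher was 2 without mouse 2, and 4 without mouse 3, without the siHnf4a library of mouse 2 or without its siCebpa library, with 10 or 11 lower in each case. Apoc2, the cofactor of lipoprotein lipase, had 8.55, 19.1 and 27.96 CPM in siHnf4a, against 38.3, 124 and 204 CPM in siCebpa (-2.60 ± 0.16, adjusted p = 5.59e-06). Apob, the structural protein of very low density lipoprotein, averaged 187 ± 37.9 CPM in siHnf4a and 538 ± 166 CPM in siCebpa (SD, n = 3 each; -1.50 ± 0.15). Mttp, which loads lipid onto it, differed by -1.16 ± 0.15, Cideb by -2.48 ± 0.20 and Tm6sf2 by -1.59 ± 0.17, both proteins of lipoprotein lipidation or secretion. Apom, carrier of sphingosine-1-phosphate, differed by -2.93 ± 0.69, but its call was lost without mouse 2 (adjusted p = 0.123), without mouse 3 (0.0812) and without the siHnf4a library of mouse 2 (0.0535), and its difference was -4.26 without mouse 1 and -4.12 without the siHnf4a library of mouse 1. Apoa1 did not pass (-0.27). Pltp, which transfers phospholipid between lipoproteins in plasma, was higher (1.32), a call lost without mouse 2 (adjusted p = 0.0787). On the 6 libraries without the mouse block the Apoc2 call was lost (adjusted p = 0.0524).

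Clotting genes stood on both sides. All 3 fibrinogen chains were higher: Fga had 979, 1249 and 839 CPM in siHnf4a, against 405, 296 and 353 CPM in siCebpa (1.53 ± 0.17, adjusted p = 0.000146), Fgb differed by 1.19 ± 0.16 and Fgg by 1.72 ± 0.24. Serpinf2, alpha-2-antiplasmin, was lower, with 15.6, 16.4 and 12.2 CPM in siHnf4a against 106, 128 and 217 CPM in siCebpa (-3.30 ± 0.25, adjusted p = 1.6e-05). F12, coagulation factor XII, had 32.3, 17.9 and 10.7 CPM in siHnf4a, against 192, 86.9 and 41.7 CPM in siCebpa (-2.29 ± 0.18, adjusted p = 2.13e-05). Proz, protein Z, differed by -3.09 ± 0.18 and F13b, a factor XIII subunit, by -2.35 ± 0.24. In all, 8 of 27 clotting genes were higher and 6 lower, and without mouse 2, 4 and 4. Prothrombin (F2, -0.22) and antithrombin (Serpinc1, -0.07) did not pass. The Fgg call was lost without the mouse block (adjusted p up to 0.148), and that of F12 on the 6 libraries without it (0.0637).

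Of 25 complement genes, 8 were lower and 0 higher in edgeR's test, with 10 lower and 4 higher at an unadjusted p under 0.05, and DESeq2 called 7 lower and 2 higher. C6 (1.93) and Mbl1 (1.10) had positive differences that did not pass. The count was 4 higher and 6 lower without mouse 1, 4 higher and 5 lower without the siCebpa library of mouse 1, and 2 lower without mouse 2. It was 1 higher and 5 lower without the siHnf4a library of mouse 1, 1 and 4 without that of mouse 3, 1 and 6 without mouse 3, and 0 and 4 without the siCebpa library of mouse 2. Without the mouse block 1 was lower. On TPM values 2 were higher and 2 lower. Mbl2, mannose-binding lectin, had 245, 160 and 241 CPM in siHnf4a, against 585, 424 and 716 CPM in siCebpa (-1.41 ± 0.12, adjusted p = 2.88e-05).

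Among plasma carriers, Trf, which encodes transferrin, had the largest negative difference, with 4517, 3672 and 4817 CPM in siHnf4a against 13960, 15780 and 17440 CPM in siCebpa (-1.86 ± 0.15, adjusted p = 2.13e-05). Ftl1, the ferritin light chain, had 1491, 1589 and 1592 CPM in siHnf4a, against 5147, 6190 and 7091 CPM in siCebpa (-1.97 ± 0.12, adjusted p = 4.37e-06). Its siCon mean was 3937 CPM, between the knockdown means, and the heavy chain Fth1 did not pass (-0.11). Hamp, hepcidin, which limits iron export, was higher at 302, 508 and 784 CPM in siHnf4a against 194, 122.8 and 88.8 CPM in siCebpa (1.78 ± 0.43, adjusted p = 0.0103). The Hamp call was lost without mouse 2 (adjusted p = 0.128), without mouse 3 (0.0539) and without the siCebpa library of mouse 2 (0.0553), and its difference was 2.56 without mouse 1 and 2.55 without the siCebpa library of mouse 1.

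Drug-metabolising enzymes moved in both directions, with 21 higher and 14 lower of 66 P450 and other oxidation enzymes and 17 higher and 8 lower of 48 conjugation enzymes. Without mouse 2 the oxidation enzymes gave 6 higher and 9 lower, and the conjugation enzymes 8 higher and 3 lower. At an unadjusted p under 0.05 in edgeR's test that omission gave 17 and 15 for oxidation and 16 and 9 for conjugation enzymes. Without mouse 3, 18 conjugation enzymes were higher and 5 lower. Ugt1a6a, a glucuronosyltransferase for phenols, had 122, 127 and 133 CPM in siHnf4a, against 29.9, 24.95 and 31.0 CPM in siCebpa (2.16 ± 0.11, adjusted p = 2.16e-06). Ugt1a6b shares exons with it and differed by 2.45 ± 0.32. With Ahr, the P450 genes Cyp1a1 (1.59 ± 0.28) and Cyp1a2 (1.68 ± 0.36), which the dioxin receptor is known to induce, were higher, both calls being lost without mouse 2 (adjusted p = 0.0562 for Cyp1a1 and 0.0867 for Cyp1a2). The Ahr call itself was lost without the mouse block. The male-type P450 gene Cyp2d9 (-3.02 ± 0.41) and its relative Cyp2d26 (-2.49 ± 0.32) were lower, and so was the phenol sulfotransferase gene Sult1a1 (-2.17 ± 0.46), which lost its call without the mouse block (adjusted p up to 0.148). The Cyp2d9 difference was -3.72 without mouse 2, and that of Sult1a1 was -2.78 without mouse 2 and -1.53 without mouse 3. Without mouse 1, Ugt1a6b differed by 3.08, and without the siCebpa library of mouse 1 by 3.07.

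Of 41 genes of fatty acid oxidation and ketogenesis, 15 (36.6%) were higher and 6 (14.6%) lower, with a median of 0.22. The shares over all tested genes were 14.9% and 16.3%. Without mouse 2 the counts were 8 and 3. By at least 2-fold, 2 were higher and 4 lower. The lower genes included Fabp1 (-2.10) and Acot2 (-1.20). Their calls were lost without mouse 1 for Fabp1 (adjusted p = 0.155) and without mouse 2 for Acot2 (0.0574). Hadha, a subunit of the mitochondrial trifunctional protein, averaged 257 ± 15.5 CPM in siHnf4a and 128 ± 22.8 CPM in siCebpa (SD, n = 3 each; 1.01 ± 0.09, adjusted p = 4.45e-05), and its partner Hadhb differed by 0.81. Cpt1a (-0.07), the entry step, did not pass.

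Of 31 genes of glucose and glycogen metabolism, 10 were higher and 5 lower, and without mouse 2, 4 and 3. Tkfc, which phosphorylates dihydroxyacetone and glyceraldehyde, had 36.1, 35.9 and 37.3 CPM in siHnf4a, against 134, 147 and 216 CPM in siCebpa (-2.17 ± 0.13, adjusted p = 5.46e-06). It overlaps Ddb1 on the opposite strand, which was lower by a smaller margin (-0.49 ± 0.08), a call lost without mouse 2 (adjusted p = 0.0506) and without the mouse block (up to 0.148). Pck1, the gluconeogenic carboxykinase, did not pass (0.32).

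Interferon-responsive genes were the list with the largest share of higher members among those drawn in the plot of gene lists. Of 37 tested, 21 were higher and 2 lower, with a median of 0.55. Irf1, a transcription factor of the interferon response, averaged 139 ± 21.5 CPM in siHnf4a and 54.8 ± 13.7 CPM in siCebpa (SD, n = 3 each; 1.36 ± 0.14, adjusted p = 9.27e-05), and Tlr3, a sensor of double-stranded RNA, averaged 39.4 ± 4.62 CPM in siHnf4a and 20.7 ± 3.64 CPM in siCebpa (0.94 ± 0.08). Oas3, an oligoadenylate synthetase, had 10.7, 56.9 and 94.4 CPM in siHnf4a, against 3.76, 21.3 and 25.4 CPM in siCebpa (1.63 ± 0.29, adjusted p = 0.00181). The mice differed more than the groups for Oas3: mouse 1 was low in both, siHnf4a was the higher library in every mouse, and the call was lost without the mouse block (adjusted p up to 0.322). Irgm1, an immunity-related GTPase, went the other way, with 33.0, 44.8 and 39.0 CPM in siHnf4a against 90.3, 151 and 186 CPM in siCebpa (-1.83 ± 0.18, adjusted p = 7.07e-05). Isg15 (0.12), Ifih1 (0.27) and Irf7 (-0.05) did not pass. Without mouse 2, 9 of the 37 were higher and 1 lower, without mouse 3, 10 and 2, and without the mouse block, 11 and 1.

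Markers of other cells were measured beside these lists. Of 16 tested markers of Kupffer cells and macrophages, 2 (12.5%) were higher and 1 (6.25%) lower, beside 14.9% and 16.3% over all tested genes. Their summed level was 662 to 1124 CPM in siHnf4a and 401 to 1254 CPM in siCebpa. Mpeg1 was higher (1.21 ± 0.25), Cd14 lower (-1.06 ± 0.18), and C1qa (0.31) and Adgre1 (0.29) did not pass. The Mpeg1 and Cd14 calls were lost without mouse 2, with adjusted p of 0.0814 for Mpeg1 and 0.0555 for Cd14, and on the 6 libraries without the block (0.118 for Mpeg1 and 0.0956 for Cd14). Timd4 was at 0 in all 6 libraries. Of 18 sinusoidal endothelial markers 3 (16.7%) were higher and 1 (5.56%) lower (summed level 160 to 229 CPM in siHnf4a and 132 to 213 CPM in siCebpa). Of 16 stellate cell and fibroblast markers 1 (6.25%), Ecm1, passed and was higher (197 to 484 CPM in siHnf4a and 142 to 358 CPM in siCebpa). The Ecm1 call (0.75) was lost without mouse 2 (adjusted p = 0.106) and without the mouse block (up to 0.469), and without mouse 1 or its siCebpa library 2 markers of that list were lower. Without mouse 2, 1 of the macrophage, endothelial and stellate cell markers passed, an endothelial one that was higher. Of 22 lymphocyte and neutrophil markers, 3 passed the filter and 5 were at 0 in all 6 libraries. The part of these cells in the interferon and acute phase results was not tested. In bulk RNA, fewer cells of a type and less RNA per cell cannot be told apart.

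Of 19 tested hepatocyte markers, 11 (57.9%) were lower and 4 (21.1%) higher, beside 16.3% and 14.9% over all tested genes. The counts were 6 and 3 without mouse 2, 6 and 4 without mouse 3, and 5 and 2 without the mouse block. This list is not independent of the treatment or of the lists above. It holds Hnf4a itself, a siRNA target that was among the lower genes. It also shares Ttr, Apob, Apoc3, Serpina1a, Serpina1c and Tat with the HNF4A-dependent genes. The median was -0.88, with a summed level of 18910 to 25030 CPM in siHnf4a and 29730 to 35410 CPM in siCebpa. Of that sum Trf averaged 4336 CPM in siHnf4a and 15730 CPM in siCebpa. The hepatocyte markers Alb, Trf and Apob were abundant in all groups, while Fabp1, usually abundant in liver, was at 0.617 CPM or less in siHnf4a and at 3.42 CPM or less in siCebpa, and averaged 2.31 CPM in siCon.

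Of 30 junction genes 11 were lower and 2 higher. The number lower was 6 without the siHnf4a library of mouse 2, 7 without that of mouse 3 and 6 without mouse 3, and without mouse 2 the counts were 3 lower and 1 higher. Cldn2, a claudin of leaky tight junctions, had 19.1, 18.2 and 17.8 CPM in siHnf4a, against 43.9, 37.7 and 85.6 CPM in siCebpa (-1.51 ± 0.21, adjusted p = 0.000552), and Cldn1 was higher (1.33 ± 0.20). The keratin genes of simple epithelia Krt8 and Krt18 were lower. Krt8 averaged 2218 ± 57.0 CPM in siHnf4a and 3760 ± 1680 CPM in siCebpa (SD, n = 3 each; -0.68 ± 0.18) and its partner Krt18 differed by -0.75 ± 0.17. Both keratin calls were lost without mouse 2 (adjusted p = 0.139 for Krt8 and 0.0982 for Krt18) and without mouse 3 (0.149 for Krt8 and 0.0581 for Krt18) and without the mouse block (up to 0.169 for Krt8 and 0.136 for Krt18), and Krt8 also without the siHnf4a library of mouse 2 (0.0663) or 3 (0.0938) or the siCebpa library of mouse 3 (0.0805). Sox4, a factor of progenitor cells, had 106, 138 and 139 CPM in siHnf4a, against 280, 372 and 433 CPM in siCebpa (-1.49 ± 0.08, adjusted p = 2.71e-06), with a siCon mean of 449 CPM. The Cldn1 call was lost without the mouse block (adjusted p up to 0.169).

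Of 55 mesenchymal, actin and YAP-target genes, 19 were lower and 9 higher. Ccn2, a secreted YAP target, had 49.99, 50.6 and 40.7 CPM in siHnf4a, against 97.6, 167 and 311 CPM in siCebpa (-1.83 ± 0.31, adjusted p = 0.00155). Amotl2, which restrains YAP, had 85.7, 124 and 130 CPM in siHnf4a, against 151, 341 and 416 CPM in siCebpa (-1.33 ± 0.16, adjusted p = 0.00021). Vim, vimentin, was higher, with 402, 445 and 539 CPM in siHnf4a against 163, 248 and 325 CPM in siCebpa (0.97 ± 0.16, adjusted p = 0.00123). The Vim call was lost without the mouse block (adjusted p up to 0.0874), and that of Amotl2 on the 6 libraries without it (0.0592). Vim and Ccn2 were both most abundant in siCon, at 801 CPM for Vim and 294 CPM for Ccn2. Without mouse 2, 4 of the 55 were higher and 7 lower. Dropping the mouse block gave 4 higher and 5 lower. Leaving out 1 library gave 8 higher and 11 lower for siHnf4a of mouse 2, and 7 higher and 12 lower for siHnf4a or siCebpa of mouse 3.

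Among 37 cell cycle genes 11 were lower and 1 higher, all by less than 2-fold. Subunits of the replicative helicase made up 5 of the 11: Mcm7 had 37.4, 42.8 and 45.4 CPM in siHnf4a, against 63.7, 74.1 and 70.1 CPM in siCebpa (-0.73 ± 0.07, adjusted p = 5.32e-05), and Mcm2 (-0.53), Mcm3 (-0.61), Mcm4 (-0.59) and Mcm5 (-0.46) were lower too. Mcm7 kept its call in every alternative, but without mouse 2 the calls of Mcm2 (adjusted p = 0.149), Mcm3 (0.0636), Mcm4 (0.0791) and Mcm5 (0.292) were lost, and Mcm2 and Mcm5 also lost theirs in other omissions, such as that of mouse 1 (0.0588 for Mcm2 and 0.0725 for Mcm5). Mcm6 (0.09) and the proliferation marker Mki67 (0.64) did not pass. Without the mouse block the calls of Mcm2, Mcm3, Mcm4 and Mcm5 were lost too. Without mouse 2, 2 of the 37 passed, both lower. When the mouse block was dropped, 2 were lower and 0 higher. Without the siHnf4a library of mouse 2, 6 were lower, and without the siCebpa library of mouse 2, 7. The list of endoplasmic reticulum stress held 39 tested genes, with 13 higher and 5 lower by less than 2-fold. The counts were 7 higher and 2 lower without the siHnf4a library of mouse 2 or the siCebpa library of mouse 2 or 3, 8 and 1 without mouse 3, and 4 and 0 without mouse 2. Without the siHnf4a library of mouse 1 or 3, 2 were lower. Ern1, the sensor IRE1, had 103, 104 and 96.5 CPM in siHnf4a, against 65.5, 60.5 and 50.1 CPM in siCebpa (0.79 ± 0.07, adjusted p = 4.09e-05), and the chaperone gene Hspa5 did not pass (-0.03).

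Promoters from 250 bases before to 50 after the start, from RefSeq on GRCm38.p6, were searched on both strands for an HNF4-type motif (AAAGTCCA, or TGGACTTT) and for C/EBP-type motifs (TTGCGCAA, TTGCACAA or TTGTGCAA). Of 10753 tested genes with a promoter, 131 (1.22%) held the HNF4-type and 121 (1.13%) a C/EBP-type motif. Among 77 genes lower by at least 4-fold, 10 (13%) held the HNF4-type and 1 (1.3%) a C/EBP-type motif. Among 274 genes lower by at least 2-fold the numbers were 12 (4.38%) and 3 (1.09%), and among all 1869 lower genes 26 (1.39%) and 15 (0.803%). These classes are nested, so their shares are not separate steps. For the HNF4-type motif, 10 of the 12 were the genes lower by at least 4-fold. Among 52 genes higher by at least 4-fold, 0 held the HNF4-type and 1 (1.92%) a C/EBP-type motif. These shares are a description with no test, a match is not a site of binding, and 1.25% of all 32851 RefSeq promoters held the HNF4-type motif and 1.19% a C/EBP-type motif.

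**Figure D4:**
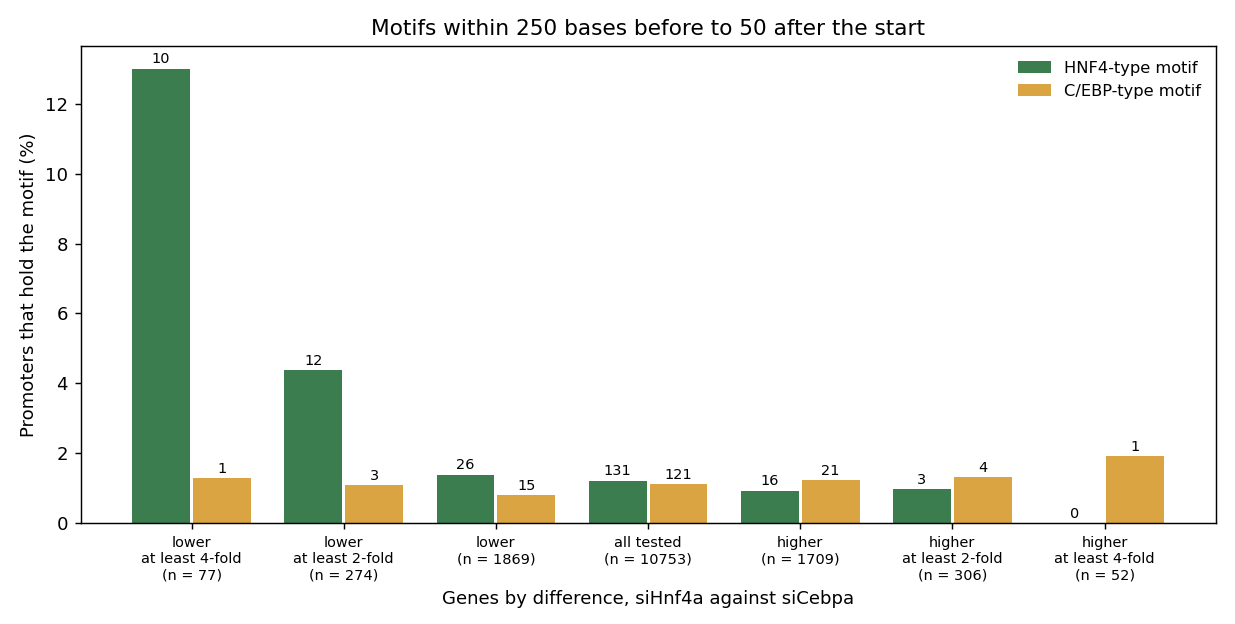
Share of promoters (%) that held the HNF4-type (green) or a C/EBP-type (yellow) motif, for genes grouped by their difference between siHnf4a and siCebpa, with the number of promoters above each bar. The classes are nested, since genes at least 4-fold lower are also at least 2-fold lower. The HNF4-type share was 13% among the 77 genes at least 4-fold lower and 1.22% among all 10753 tested genes.

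The 4 most abundant of the 10 genes that were at least 4-fold lower and held the HNF4-type motif are printed to show where the motif lies. They were Cyp2c70 (chr19:40187237-40187536, minus strand), Pipox (chr11:77893823-77894122, minus strand), Pla2g12b (chr10:59403435-59403734, plus strand) and Pdzk1 (chr3:96829815-96830114, plus strand). Each sequence runs 5′ to 3′ on the strand of the gene, and capitals mark the motif.
Cyp2c70: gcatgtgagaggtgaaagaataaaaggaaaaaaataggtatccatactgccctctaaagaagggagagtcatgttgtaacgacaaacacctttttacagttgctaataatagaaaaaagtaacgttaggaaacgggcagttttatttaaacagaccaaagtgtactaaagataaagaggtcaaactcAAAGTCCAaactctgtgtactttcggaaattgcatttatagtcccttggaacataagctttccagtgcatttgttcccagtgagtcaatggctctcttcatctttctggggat
Pipox: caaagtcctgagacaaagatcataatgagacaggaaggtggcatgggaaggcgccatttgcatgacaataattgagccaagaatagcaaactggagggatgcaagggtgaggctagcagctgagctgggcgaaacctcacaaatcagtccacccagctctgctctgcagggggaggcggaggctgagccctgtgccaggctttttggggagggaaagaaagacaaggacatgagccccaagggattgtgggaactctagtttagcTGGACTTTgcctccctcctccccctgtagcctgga
Pla2g12b: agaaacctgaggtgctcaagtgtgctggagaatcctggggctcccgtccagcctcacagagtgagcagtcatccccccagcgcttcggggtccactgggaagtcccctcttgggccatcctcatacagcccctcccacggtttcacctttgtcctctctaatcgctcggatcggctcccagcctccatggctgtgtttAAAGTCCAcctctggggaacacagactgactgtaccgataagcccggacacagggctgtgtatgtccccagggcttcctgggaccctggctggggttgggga
Pdzk1: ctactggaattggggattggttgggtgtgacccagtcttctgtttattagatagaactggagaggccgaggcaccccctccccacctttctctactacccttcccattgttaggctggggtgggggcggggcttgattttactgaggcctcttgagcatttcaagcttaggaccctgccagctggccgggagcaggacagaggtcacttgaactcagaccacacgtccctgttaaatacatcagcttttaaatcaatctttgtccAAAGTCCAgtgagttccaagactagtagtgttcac

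The motif began 63 bases before the start in Cyp2c70 and 52 before it in Pla2g12b. In Pipox and Pdzk1 the motif began at position 16, with the start base counted as 1. In Pipox it is read on the opposite strand of the gene. The RefSeq start of Pdzk1 lies 781 bases from the GENCODE start of the gene. Pla2g12b, a secreted phospholipase-like protein needed for lipoprotein secretion, averaged 7.13 ± 0.955 CPM in siHnf4a and 29.0 ± 3.89 CPM in siCebpa (SD, n = 3 each; -2.02 ± 0.13, adjusted p = 7.8e-06). Pdzk1, a scaffold of the HDL receptor, averaged 0.739 ± 0.523 CPM in siHnf4a and 6.06 ± 6.80 CPM in siCebpa (-2.78 ± 0.45, adjusted p = 0.00113, and -2.12 without the siCebpa library of mouse 1). The other 6 were Gimd1, Aspdh, Aadat, Treh, Hsd3b3 and Cyp2c67, all under 4 CPM on average in either group. None of the 15 genes with a promoter among the 24 largest differences named above held either motif.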

How the data were processed

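The authors deposited 2 values per gene and library, expected counts (estimated reads, some fractional, without scaling) and TPM. The submitters' processing notes name Trim Galore 0.6.4, kallisto 0.4.6 and the build GRCm38.p6. Annotation, strand setting and filters: not given in the sources used here. Sample titles gave the groups. The MPH number stands for the mouse, as the design text of the series says. Of 55385 gene identifiers 55144 matched GENCODE (54487 with their version), and the 241 others held 0.00349% of the counts.

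Expected counts were rounded and fitted with edgeR 4.0.16 in R 4.3.3. The filter was edgeR's filterByExpr by group (about 0.42 CPM or more in 3 libraries), and 15090 genes passed it. TMM factors ran from 0.947 to 1.038. The quasi-likelihood fit held all 12 libraries, so that the spread is shared, with group and mouse as terms and 6 residual degrees of freedom. Only siHnf4a minus siCebpa was tested, two-sided, with Benjamini-Hochberg adjustment over all tested genes at 0.05. Same-mouse libraries deviated together: residuals of siHnf4a and siCebpa libraries correlated at 0.343 to 0.717 within a mouse, and 12 of 12 libraries matched their own mouse best over 10264 genes. Values after ± are standard errors for log2 differences and SDs (n = 3) for CPM. The fit was run on counts simulated from its own means and spread, with changes of the same size in every mouse planted in better-counted genes. It recovered 94 of 100 changes of 1 log2 unit and 100 of 100 of 2 units, with 9 false among 203 calls. Such data share the assumptions of the model, so they cannot show how far calls depend on the mouse block or on 1 mouse.

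Named genes were Hnf4a, Cebpa and Alb, the 12 largest differences in each direction among called genes that averaged 5 CPM or more, had a symbol and kept 1 sign in 3 mice, up to 4 members per list, and the liver transcription factors. Other genes printed were chosen after their values were seen. Some genes that the rule names are not reported here. The comparison, the gene lists and the naming rule were chosen with earlier results of these data known, so list counts are descriptions and no list was tested. Alternatives were no mouse block, only the 6 libraries, DESeq2 1.42.0, RLE scaling, other filters, limma 3.58.1 on log2(TPM + 1), and leaving out libraries or mice. In the main test the p values measure the spread left between cultures of 3 mice after the group and mouse terms, over all 12 libraries.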

Additional observations from a re-analysis of the deposited data

How the results depend on the processing

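Hnf4a, Cebpa and Alb kept their side of the threshold in all 18 alternatives, and leaving out libraries or mice moved Hnf4a between -2.17 and -1.55, Cebpa between 2.69 and 2.96 and Alb between -0.281 and 0.163. Without the mouse block 2442 genes passed (1133 higher, 1309 lower), all of them among the 4712, and on the 6 compared libraries without the block 1322 (685 higher, 637 lower), against 3455 on the 6 libraries with it. DESeq2 gave 4312 genes, and other scalings and filters of the counts 4576 to 4686. On TPM values 944 genes were lower, and on TPM values scaled by TMM, an alternative chosen after seeing the data, 1717. Leaving out libraries or mice gave 1440 to 4663 genes, with 773 to 2236 higher and 667 to 2427 lower. Of 146 named genes past the threshold, 56 kept their call in every alternative, 95 without the mouse block, and 62 lost it in at least 1 omission. The sign changed for Ccnd2, which was lower in the count test (-0.63) and had 0.451 on TPM values and 0.355 on scaled TPM values, neither past the threshold. Of 1152 list counts, 314 moved by over 1.5 times. The cause of these differences was not tested. Genes under 1 CPM rest on few counts.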

Other observations

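Other gene groups differed in both directions. Of 19 major urinary protein genes and known growth hormone targets, 7 were lower in siHnf4a and 1 higher, and without mouse 2, 2 and 0. Without the siHnf4a library of mouse 3, 6 were lower and 2 higher. Socs2, a feedback inhibitor of cytokine signalling, averaged 21.2 ± 3.86 CPM in siHnf4a and 67.9 ± 27.0 CPM in siCebpa (SD, n = 3 each; -1.63 ± 0.26), Cish differed by -1.24 ± 0.26 and Igf1 by -0.98 ± 0.26, and without mouse 2 all 3 calls were lost (adjusted p = 0.0514 for Socs2, 0.106 for Cish and 0.0927 for Igf1 in edgeR's test). Without mouse 3 the Cish (0.0508) and Igf1 (0.0879) calls were lost as well, and Igf1 lost its call without the siHnf4a (0.0722) or the siCebpa (0.074) library of mouse 3. The gene called higher was Sult2a1 (1.75 ± 0.36), a call lost without mouse 2 (adjusted p = 0.0573). Of 31 redox genes of the NRF2 type 9 were higher and 5 lower, and without mouse 2, 8 and 2. The number lower was 2 without the siHnf4a library of mouse 1 or 2, and 3 without mouse 3 or the siCebpa library of mouse 2 or 3. They included G6pdx, the first enzyme of the pentose phosphate route, with 47.5, 62.8 and 100.6 CPM in siHnf4a against 29.95, 26.6 and 47.2 CPM in siCebpa (0.99 ± 0.13), a call lost without the mouse block (adjusted p up to 0.0944). Nqo1 (0.79), Gclc (0.80) and Srxn1 (0.78) were higher, while Hmox1 was lower (-0.63), a call lost without mouse 3 (adjusted p = 0.0612).

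Of 19 clock genes, 6 (31.6%) were higher and 3 (15.8%) lower, beside 14.9% and 16.3% over all tested genes. At least a 2-fold difference was seen for 2 of the higher and 0 of the lower genes. Without mouse 2 the counts were 4 higher and 0 lower. Without the siHnf4a library of mouse 2 they were 5 and 1. Npas2, a partner of ARNTL, had 17.1, 17.0 and 15.2 CPM in siHnf4a, against 6.10, 5.49 and 6.42 CPM in siCebpa (1.45 ± 0.12, adjusted p = 2.88e-05), and Cry1 had 30.4, 29.2 and 22.2 CPM in siHnf4a, against 16.4, 15.6 and 12.9 CPM in siCebpa (0.86 ± 0.08, adjusted p = 5.39e-05). The groups did not overlap for either gene and both calls held in every alternative, while Clock (0.19), Per1 (0.22) and Dbp (0.38) did not pass. Among acute phase and NF-kB genes 9 of 35 (25.7%) were higher and 2 (5.71%) lower, and 5 and 0 without mouse 2. Without the siHnf4a library of mouse 2 the counts were 5 and 1, and without mouse 3, 7 and 4. Il1f9, an interleukin 36 cytokine, had 59.0, 99.8 and 141 CPM in siHnf4a, against 18.4, 29.4 and 24.4 CPM in siCebpa (2.01 ± 0.27, adjusted p = 0.000409), and averaged 5.65 CPM in siCon. In sphingolipid metabolism, Acer2, a ceramidase of the Golgi, had 28.1, 26.8 and 23.8 CPM in siHnf4a, against 8.47, 7.42 and 6.68 CPM in siCebpa (1.80 ± 0.10, adjusted p = 2.71e-06).

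Per-mouse differences (siHnf4a minus siCebpa within a mouse, over 10252 genes) correlated at 0.77 for mice 1 and 2, 0.79 for mice 2 and 3 and 0.65 for mice 1 and 3. These are correlations across genes, which are not independent replicates.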
